A study of Mus musculus with 38 samples.

Results

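The genes described here are the enzymes and regulators that carry glucose carbon through glycolysis, the pyruvate dehydrogenase complex and the citrate cycle. They are 39 of the 35682 genes in the table, taken from a list of names and matched through the Ensembl identifier of each row. Of these, 19 belong to glycolysis, 7 to pyruvate dehydrogenase and 13 to the citrate cycle. They were measured by 3′ RNA sequencing in cardiomyocytes, endothelial cells (ECs) and fibroblasts of the hearts of male C57BL/6 mice, in 38 libraries, each of which pooled a pair of hearts. The design asks how ischemia and reperfusion, and treatment with empagliflozin beforehand, bear on each cell population.

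The Sham group had an open chest without ligation after vehicle (5% DMSO in saline, by mouth). Mice of the Control-AMI group (acute myocardial infarction, labelled Control_IR) had the same vehicle for 6 weeks, then 30 min of ligation of the left anterior descending coronary artery and 2 h of reperfusion. Mice of the EMPA–Pre-AMI group (labelled EMPA_IR) differed from Control-AMI in having empagliflozin (EMPA, an inhibitor of the sodium-glucose cotransporter SGLT2) at 10 mg/kg/d over those weeks. No EMPA group without infarction was analysed here. Cardiomyocytes were the pellet of collagenase-digested tissue from below the suture, ECs were sorted as CD45- CD31+ and fibroblasts as CD45- CD31- CD90+. For cardiomyocytes there were 4 libraries of Sham, 5 of Control-AMI and 4 of EMPA–Pre-AMI, for ECs 4, 4 and 5, and for fibroblasts 4 of each.

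Glycolysis splits glucose into pyruvate in the cytosol, and its flux is set mainly at hexokinase, phosphofructokinase and pyruvate kinase. Pyruvate is reduced to lactate by lactate dehydrogenase or enters mitochondria, where the pyruvate dehydrogenase complex turns it into acetyl-CoA, and kinases of the Pdk family switch that complex off by phosphorylation. The citrate cycle then oxidizes acetyl-CoA and hands electrons to the respiratory chain. Cardiomyocytes of the adult heart draw most of their ATP from mitochondrial oxidation, largely of fatty acids, whereas ECs rely on glycolysis to a large extent even when oxygen is at hand.

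Library totals lay between 2031716 and 4509284 counts in cardiomyocytes, between 1352514 and 2195308 in ECs, and between 1946056 and 2821373 in fibroblasts. Levels below are CPM, counts in every 1000000 of a library after scaling with TMM factors. A count of 0 allows up to 3 counts. In every 1000000 of the unscaled totals these are 0.665 to 1.48, 1.37 to 2.22 and 1.06 to 1.54 in the same order. These limits cover counting error only and were not scaled with TMM factors, so they do not carry over directly to the CPM below. Mitochondrially encoded genes took between 46.6% and 66% of the counts of cardiomyocytes, against at most 14.6% in ECs (from 4.52%) and 12.5% in fibroblasts (from 3.47%). Sham levels of genes set across populations use factors over all libraries. Levels within a population, and all marker sums, use factors of each population alone, so the CPM of a gene differs between these uses. Marker sums of different populations are therefore not on a common scale. Markers of each population led in its own libraries: the summed level of 11 cardiomyocyte markers was 28239 to 58253 CPM in cardiomyocytes, against 368 to 1986 in the EC libraries and 181 to 1133 in the fibroblast libraries. The EC libraries of Control-AMI stood apart in 10 fibroblast markers, all detected, with sums of 2343 to 8653 CPM against 666 to 1727 in Sham and 599.9 to 1189.5 in EMPA–Pre-AMI. In those libraries the sum of 10 endothelial markers was 7516 to 10258 CPM against 14365 to 15833 and 10508 to 15018. Sums of 5 erythroid markers were 15.9 to 177 CPM in ECs of Sham, below every library of Control-AMI (236 to 990.5 CPM) and EMPA–Pre-AMI (308 to 1301 CPM). In fibroblasts they were 61.9 to 88.03 CPM in Sham and 138 to 743 CPM in Control-AMI, without overlap, and 75.4 to 206 CPM in EMPA–Pre-AMI. In cardiomyocytes the 3 groups overlapped, with the highest sum in EMPA–Pre-AMI replicate 2 (2656 CPM). The sum of 8 mural markers in fibroblasts was 5938 CPM in Control-AMI replicate 4 against 869.6 to 1429 CPM in the other libraries of that group. Leukocyte markers were high in ECs of Control-AMI replicate 3 (706 CPM) and fibroblasts of Sham replicate 2 (552 CPM). The sample labels give each library a sample number and a sheet number. Taken in order of sheet number, the sample numbers rise in 4 runs. These runs, a grouping made here, are called sample-sheet lists, and no source calls them batches. The authors report that all samples were prepared into libraries and sequenced together. List 4 held every cardiomyocyte library of Sham and Control-AMI together with replicate 4 of EMPA–Pre-AMI, whose replicates 1 to 3 came from other lists. In fibroblasts, Sham replicates 2 to 4 were on list 1 and Control-AMI replicates 1 to 3 on list 4. Sham replicate 1 was on list 4 and Control-AMI replicate 4 on list 1. In ECs, list 4 held replicates 1 and 4 of Control-AMI and no library of another group. In bulk libraries, fewer cells of a type and less RNA per cell cannot be told apart.

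In Sham hearts nearly all members of the 3 lists were higher in cardiomyocytes than in the other populations. Of 38 members tested in 1 edgeR quasi-likelihood fit of all libraries, 35 were higher in cardiomyocytes than in ECs and 35 than in fibroblasts at a false discovery rate (FDR, the Benjamini-Hochberg adjusted p) below 0.05. Of all 12085 genes tested, 28.1% and 24.5% were called higher. Lower in cardiomyocytes were 1 member against ECs and 0 against fibroblasts, where 24.8% and 22.7% of all genes were lower. The median log2 difference of the members tested was 3.33 against ECs and 3.12 against fibroblasts, beside -0.04 and -0.09 for all genes. By list, the medians against ECs were 2.84 for glycolysis, 3.21 for pyruvate dehydrogenase and 3.57 for the citrate cycle, and against fibroblasts 2.35, 3.22 and 3.56. The member left out of the fit was Pfkfb2, an isozyme of the enzyme that makes fructose 2,6-bisphosphate, whose mean level was 2.30 ± 0.564 CPM in cardiomyocytes, 0.446 ± 0.515 in ECs and 1.40 ± 2.32 in fibroblasts. CPM of different genes are not compared with each other here, because the values carry no correction for how well each 3′ end is read.

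**Figure D1:**
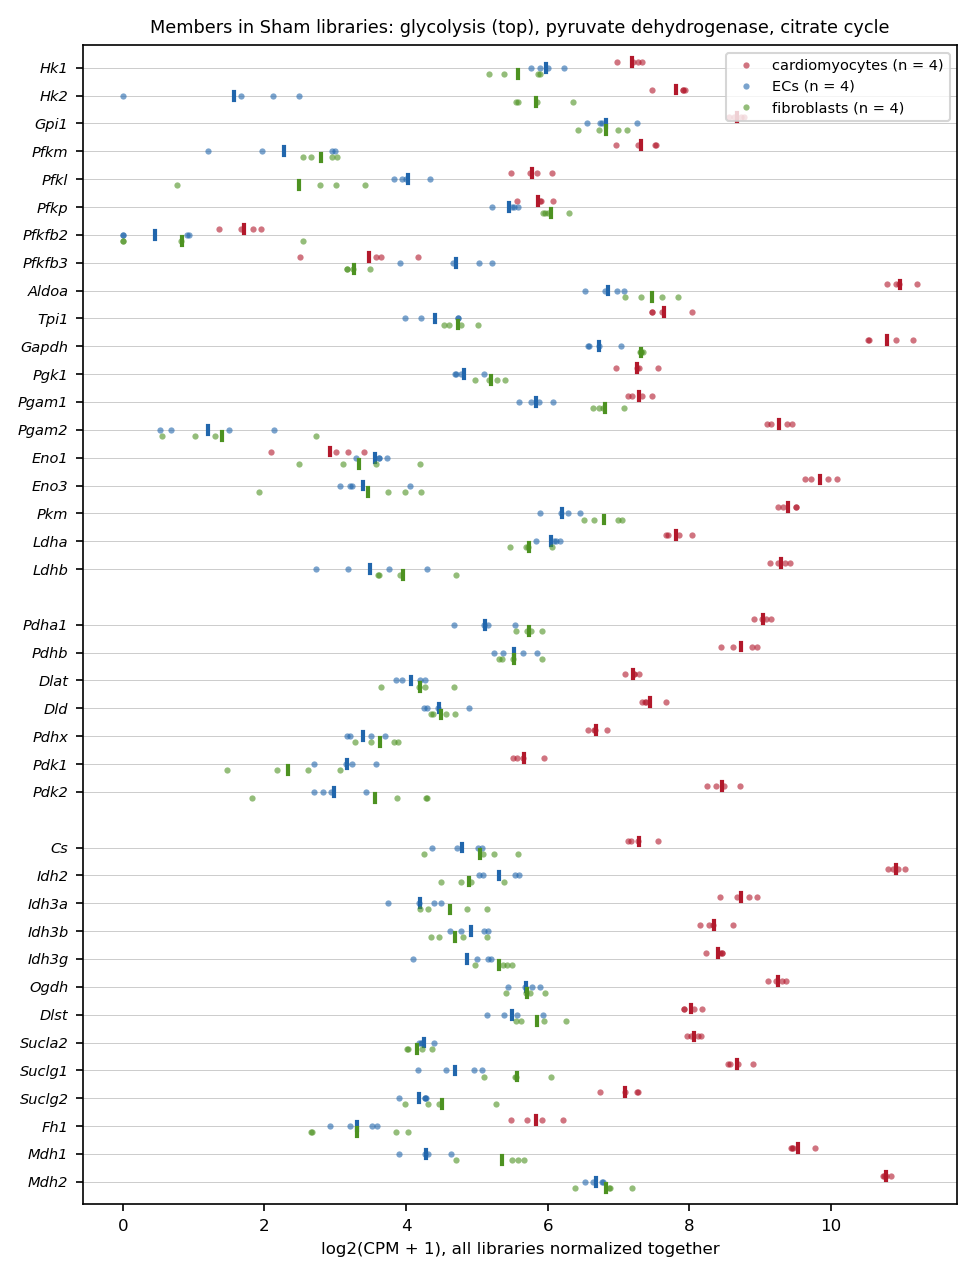
Level of each member in each of the 4 Sham libraries of cardiomyocytes, ECs and fibroblasts, in CPM on a log2 scale. Dots are libraries, ticks are means of the logged values, and the members are ordered by list. Nearly all members sit highest in cardiomyocytes, whereas Pfkfb3, Pfkp and Eno1 do not.

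Among glycolytic genes the widest gaps lay at isozymes known from muscle. Pgam2, the muscle phosphoglycerate mutase, was at 619 ± 72.5 CPM in cardiomyocytes, 1.56 ± 1.36 in ECs and 2.14 ± 2.35 in fibroblasts. Its log2 difference was 8.53 ± 0.51 (SE, FDR = 1.51e-16) against ECs and 8.21 ± 0.49 (SE, FDR = 1.65e-16) against fibroblasts, although in the other populations it rested on few counts. Eno3, the muscle enolase, was at 925 ± 132 CPM in cardiomyocytes, 9.91 ± 3.84 in ECs and 11.8 ± 6.37 in fibroblasts. Ldhb, the heart form of lactate dehydrogenase, differed by 5.77 ± 0.35 (SE, FDR = 2.50e-17) and 5.35 ± 0.33 (SE, FDR = 1.05e-16) in the same order, and Pfkm, muscle phosphofructokinase, by 5.08 ± 0.31 (SE, FDR = 3.66e-17) and 4.72 ± 0.30 (SE, FDR = 1.00e-16). Aldolase Aldoa was at 2014 ± 260.4 CPM in cardiomyocytes, 115 ± 18.5 in ECs and 179.5 ± 40.9 in fibroblasts, and Gapdh, often used as a reference gene, at 1794 ± 395 CPM in cardiomyocytes, 105.7 ± 17.2 in ECs and 159 ± 2.52 in fibroblasts, so its level was far from even between these populations. Of the other steps, phosphoglucose isomerase Gpi1 was at 407 ± 25.7 CPM in cardiomyocytes, 114 ± 25.6 in ECs and 114 ± 23.9 in fibroblasts, and pyruvate kinase Pkm at 675 ± 59.1 CPM in cardiomyocytes, 73.5 ± 11.95 in ECs and 112 ± 19.8 in fibroblasts.

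Hexokinases phosphorylate glucose on entry. Hk1, the form found in most tissues, differed least of the pair: its Sham level was 146 ± 15.1 CPM in cardiomyocytes, 62.2 ± 8.71 in ECs and 47.8 ± 11.7 in fibroblasts, a log2 difference of 1.23 against ECs. Hk2, the insulin-responsive form of muscle and heart, was at 225 ± 33.1 CPM in cardiomyocytes, 2.54 ± 1.96 in ECs and 57.5 ± 16.2 in fibroblasts, and in ECs its 4 Sham libraries held 0 to 15 counts. The log2 difference of Hk2 was 6.36 ± 0.45 (SE, FDR = 1.64e-14) between cardiomyocytes and ECs, 1.97 ± 0.34 (SE, FDR = 9.37e-06) between cardiomyocytes and fibroblasts and -4.39 ± 0.44 (SE, FDR = 2.38e-10) between ECs and fibroblasts. The 3 populations did not overlap in Hk2, with ECs lowest.

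Pfkfb3, which makes the phosphofructokinase activator fructose 2,6-bisphosphate, was the member called lower in cardiomyocytes than in ECs (-1.22 ± 0.40 SE, FDR = 0.0106), with Sham levels of 11.02 ± 5.02 CPM in cardiomyocytes, 26.6 ± 9.61 in ECs and 8.67 ± 1.06 in fibroblasts. It did not pass the test between cardiomyocytes and fibroblasts (0.38 ± 0.42 SE, FDR = 0.486). Pfkp, platelet phosphofructokinase, and Eno1, the enolase of most tissues, were called in neither of these comparisons. Pfkp differed by 0.43 ± 0.21 (SE, FDR = 0.0869) against ECs and -0.18 ± 0.21 (SE, FDR = 0.502) against fibroblasts. Eno1 is uncertain in all comparisons, since its near-identical copy Eno1b held 2350 counts in all libraries to its 1088 and reads may have been split between them.

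All 7 pyruvate dehydrogenase genes were higher in cardiomyocytes, by log2 differences of 2.62 to 5.64 against ECs and 2.99 to 4.74 against fibroblasts. Pdha1 and Pdhb encode the E1 subunits, Dlat the E2 core, Dld the E3 subunit and Pdhx the protein that binds E3 to the core. Pdha1 was at 525 ± 36.8 CPM in cardiomyocytes, 34.5 ± 8.59 in ECs and 52.5 ± 5.72 in fibroblasts, and Pdhb at 425 ± 67.8 CPM in cardiomyocytes, 45.8 ± 8.94 in ECs and 45.6 ± 9.43 in fibroblasts. The largest difference was that of the kinase Pdk2, at 353 ± 48.9 CPM in cardiomyocytes, 7.04 ± 1.94 in ECs and 13.3 ± 7.51 in fibroblasts, with 5.64 ± 0.50 (SE, FDR = 1.77e-11) against ECs. Its relative Pdk1 differed by 2.62 ± 0.36 (SE, FDR = 9.57e-08).

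All 13 citrate cycle genes were higher in cardiomyocytes too, from 2.51 to 5.62 against ECs and from 2.17 to 6.04 against fibroblasts on the log2 scale. The mitochondrial NADP-linked isocitrate dehydrogenase Idh2 was at 1937 ± 137 CPM in cardiomyocytes, 39.3 ± 8.08 in ECs and 29.4 ± 8.20 in fibroblasts, and had the largest difference of the list in both comparisons. The NAD-linked enzyme of the cycle itself, made of Idh3a, Idh3b and Idh3g, differed by 4.58, 3.47 and 3.50 against ECs. The oxoglutarate dehydrogenase subunits Ogdh and Dlst differed by 3.57 and 2.52. Citrate synthase, Cs, which opens the cycle, was at 156 ± 22.1 CPM in cardiomyocytes, 27.2 ± 5.94 in ECs and 33.7 ± 11.9 in fibroblasts. Cytosolic malate dehydrogenase Mdh1, part of the malate-aspartate shuttle, was at 741 ± 87.5 CPM in cardiomyocytes, 18.7 ± 4.11 in ECs and 41.4 ± 11.1 in fibroblasts, and its mitochondrial partner Mdh2 at 1747 ± 59.5 CPM in cardiomyocytes, 102 ± 8.32 in ECs and 115 ± 25.4 in fibroblasts.

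ECs and fibroblasts of Sham hearts were closer to each other. In ECs 2 members were called higher and 8 lower than in fibroblasts, beside 17.6% and 20.2% of all genes. Higher in ECs were Pfkfb3 (1.60 ± 0.38 SE, FDR = 0.000792) and Pfkl, liver phosphofructokinase (1.40 ± 0.40 SE, FDR = 0.00499). Lower were Hk2, Pfkp, Aldoa, Gapdh and Pgam1 of glycolysis, the E1 subunit Pdha1, and Suclg1 and Mdh1 of the citrate cycle, with log2 differences of -0.59 (Gapdh) to -4.39 (Hk2). Once the sample-sheet list was a term of the model, 2 members were called in place of 10.

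The balance between isozymes was then set side by side for the populations. For each library the log2 ratio of counts of 10 isozyme pairs was taken after 0.5 was added to each count, and is used only to compare groups with each other, not as a ratio of transcripts. In Sham, the log2 ratio of Ldha, the lactate dehydrogenase form of most glycolytic tissues, to Ldhb was -1.50, -1.45, -1.38 and -1.60 in cardiomyocytes, 2.78, 2.49, 1.83 and 3.54 in ECs and 1.93, 2.54, 1.05 and 1.84 in fibroblasts. Every cardiomyocyte library thus lay below every library of the other populations in this ratio. The log2 ratio of Pfkp to Pfkm was -1.62, -1.08, -1.98 and -1.20 in cardiomyocytes, 3.86, 2.62, 2.40 and 4.95 in ECs and 3.96, 3.14, 3.53 and 3.05 in fibroblasts, where Pfkm held 3 to 31 counts in libraries of ECs and fibroblasts. The log2 ratio of Hk2 to Hk1 was 0.65, 0.49, 0.62 and 0.72 in cardiomyocytes, -4.49, -4.40, -3.63 and -8.18 in ECs and -0.04, 0.99, -0.31 and 0.41 in fibroblasts. Every EC library was below every library of the other populations.

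The other pairs were as follows in Sham. The log2 ratio of Pdk2 to Pdk1 was 2.45, 3.23, 2.95 and 2.61 in cardiomyocytes, 0.23, -0.24, 0.00 and -0.81 in ECs and 1.82, 2.34, 2.84 and -1.50 in fibroblasts. That of Mdh1 to Mdh2 was -1.30, -1.31, -1.07 and -1.29 in cardiomyocytes, -2.94, -2.52, -2.03 and -2.31 in ECs and -2.21, -1.38, -1.63 and -0.73 in fibroblasts. Cardiomyocytes lay above every EC library, and ECs and fibroblasts overlapped. Sucla2 and Suclg2 are the ATP- and GTP-forming partners of succinyl-CoA ligase, and their log2 ratio was 0.89, 0.89, 0.87 and 1.29 in cardiomyocytes, 0.30, -0.05, -0.07 and 0.13 in ECs and -0.46, -0.09, 0.03 and -0.94 in fibroblasts. Every cardiomyocyte library was above every EC library in this ratio. The log2 ratio of Pgam2 to Pgam1 was 1.91, 2.02, 2.26 and 1.78 in cardiomyocytes and that of Eno3 to Eno1 6.63, 7.89, 7.18 and 6.57. Means in ECs and fibroblasts were -5.35 ± 1.16 and -6.14 ± 1.21 (SD) for the first, and -0.19 ± 0.42 and 0.11 ± 0.82 for the second. Pfkl to Pfkm averaged -1.55 ± 0.25, 1.98 ± 1.28 and -0.50 ± 1.85, and Pfkfb3 to the sparse Pfkfb2 2.01 ± 0.59, 5.89 ± 1.34 and 3.97 ± 2.37. No test was run between populations on these ratios.

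In ECs, the glycolytic genes Hk2 and Pfkfb3 were higher and the citrate cycle gene Fh1 was lower in Control-AMI than in Sham. Between Control-AMI and Sham, 3 of 37 members tested passed at FDR below 0.05, 2 higher and 1 lower, where 6.56% of 10438 genes passed. Hk2 was at 3.54, 5.23, 7.30 and 0 CPM in the Sham libraries and 30.4, 23.3, 52.8 and 14.9 CPM in those of Control-AMI. The groups did not overlap, and Hk2 rose by 2.82 ± 0.53 (SE, FDR = 0.00315) on the log2 scale. Pfkfb3 was at 51.3, 38.03, 22.4 and 57.6 CPM in Sham and 68.9, 256, 125 and 175 CPM in Control-AMI. It rose by 1.89 ± 0.48 (SE, FDR = 0.0425), and the lowest Control-AMI library, replicate 1, lay close to the highest Sham library. Fumarate hydratase Fh1, which turns fumarate into malate in the citrate cycle, was at 10.6, 17.1, 16.5 and 13.2 CPM in Sham and 5.44, 4.09, 7.35 and 2.49 CPM in Control-AMI. Fh1 changed by -1.56 ± 0.39 (SE, FDR = 0.016), again without overlap, and on 18 to 36 counts a library in Sham and 4 to 12 in Control-AMI. In pyruvate dehydrogenase no member passed, and the smallest p was that of Pdk2 (0.56 ± 0.36 SE, FDR = 0.428). Erythroid markers moved with these changes, as given above, and their part was not tested.

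These calls did not rest equally on the libraries. Hk2 kept its call when any 1 library was left out, with changes of 2.42 to 3.26. It stood at 2.42 (FDR = 0.00689) without Control-AMI replicate 3, the library with the leukocyte markers, and at 2.83 (FDR = 0.0073) without replicate 1, that with the highest fibroblast sum. Pfkfb3 lost its call without any 1 of the 4 Sham libraries, Control-AMI replicates 2, 3 or 4, or EMPA–Pre-AMI replicates 2 or 5, at FDR of 0.0508 to 0.111. Fh1 lost its call without Sham replicate 3 (FDR = 0.0607), without Control-AMI replicate 4 (FDR = 0.0569) and once the sample-sheet list was a term of the model (FDR = 0.173). With that term Pfkfb3 stood at FDR = 0.0745, and Hk2 was the member still called.

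Fibroblasts carry more Hk2 than ECs, so its level in ECs was set beside the fibroblast markers that were also high in the Control-AMI libraries. As a share of the summed fibroblast markers, Hk2 was 0.310% to 2.04% in ECs of Control-AMI, 0% to 1.10% in ECs of Sham and 0.607% to 1.85% in ECs of EMPA–Pre-AMI. In the fibroblast libraries the share was 0.252% to 0.617% in Sham and 0.947% to 2.09% in Control-AMI. The share in ECs of Control-AMI thus lay in or below the range that fibroblasts of the same group showed, and the part of fibroblast RNA in the EC value was not tested. For Pfkfb3 the share was 0.797% to 10.9% in ECs of Control-AMI and 0.0600% to 0.144% in fibroblasts of Control-AMI. Every EC library had a higher share of Pfkfb3 than every fibroblast library, but the marker sum that divides it was far higher in fibroblasts.

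**Figure D2:**
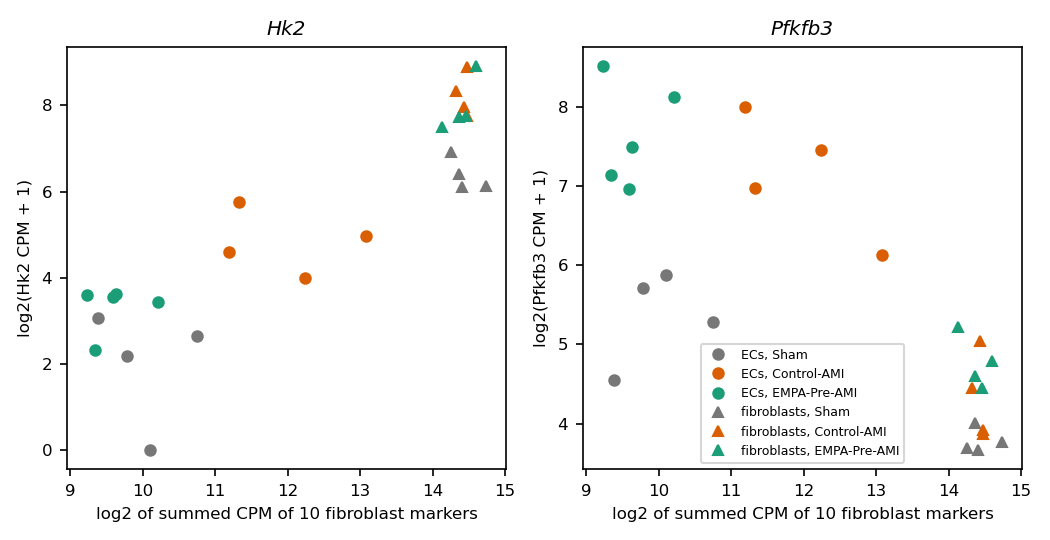
Level of Hk2 and of Pfkfb3 against the summed level of 10 fibroblast markers in each EC and fibroblast library, all in CPM. Values are scaled within each population, and colours mark Sham, Control-AMI and EMPA–Pre-AMI. EC libraries of Control-AMI lie to the right of the other EC libraries, and Pfkfb3 is higher in ECs than in fibroblasts at far lower marker sums.

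In ECs of EMPA–Pre-AMI, Pfkfb3 was higher than in Sham as well. Against Sham, 1 of 37 members was called, beside 2.71% of all genes: Pfkfb3, at 123, 279, 139.7, 365 and 179 CPM in EMPA–Pre-AMI, rose by 2.37 ± 0.47 (SE, FDR = 0.0214). Every EMPA–Pre-AMI library was above every Sham library. That call was lost without Sham replicate 2 (FDR = 0.0777), Sham replicate 3 (FDR = 0.0708) or EMPA–Pre-AMI replicate 2 (FDR = 0.0516). Hk2 was at 10.8, 9.73, 3.96, 11.1 and 11.4 CPM in EMPA–Pre-AMI, and Fh1 at 9.15, 6.49, 11.3, 9.89 and 8.98 CPM. The Fh1 values overlapped those of both other groups. The smallest p against Sham were those of Dld in pyruvate dehydrogenase (0.37 ± 0.21 SE, FDR = 0.446) and Idh3b in the citrate cycle (-0.50 ± 0.19 SE, FDR = 0.202). Both comparisons with Sham share the same Sham libraries.

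Between EMPA–Pre-AMI and Control-AMI no member of ECs passed in edgeR at FDR below 0.05, where 2.63% of all genes did. At an unadjusted p below 0.05 there were 3 members (all genes: 12.2%), and DESeq2 called 1 (all genes: 3.29%). The nearest was Hk2, lower in every EMPA–Pre-AMI library than in any Control-AMI library, with -1.68 ± 0.45 (SE, FDR = 0.0509). Its FDR fell below the threshold without Sham replicate 3 (0.0374), Sham replicate 4 (0.0131), Control-AMI replicate 2 (0.0416) or replicate 4 of Control-AMI (0.0355), and rose to 0.153 without Control-AMI replicate 3. The fibroblast marker sums of these groups differed in the same direction as Hk2. Pdk2 (-1.01 ± 0.35 SE, FDR = 0.172) and Fh1 (0.91 ± 0.38 SE, FDR = 0.294) had the smallest p of their lists.

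In ECs the summed level of the glycolytic members was 1219 ± 103 CPM (SD) in Sham, 1564 ± 100.2 after infarction in Control-AMI, and 1551 ± 251 with EMPA, and the ranges of Sham (1127 to 1347) and Control-AMI (1467 to 1654) did not overlap. Pyruvate dehydrogenase summed to 227 ± 14.4, 226 ± 22.9 and 232 ± 22.7 CPM, and the citrate cycle to 683 ± 58.5, 646 ± 54.5 and 636 ± 50.4 CPM. The median log2 change between Control-AMI and Sham was 0.22, 0.02 and -0.06 in the 3 lists beside -0.02 for all genes. The glycolytic sums include Hk2 and Pfkfb3, which were called above. No test was made of these sums.

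**Figure D3:**
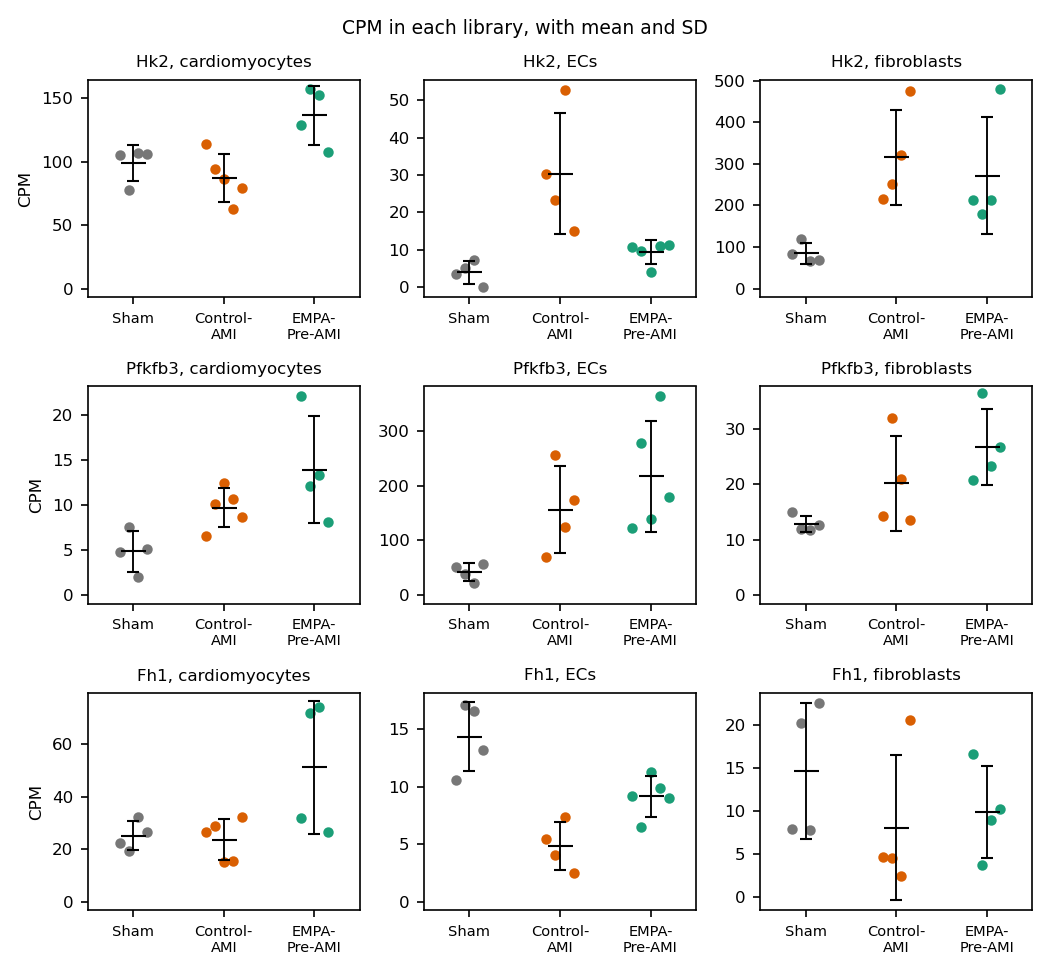
Level in CPM of Hk2, Pfkfb3 and Fh1 in every library of cardiomyocytes, ECs and fibroblasts, with the mean and SD of each group of Sham, Control-AMI and EMPA–Pre-AMI. Hk2 is higher in both AMI groups than in Sham in fibroblasts, and Pfkfb3 in both AMI groups in ECs.

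In fibroblasts, Hk2 was higher than in Sham in both AMI groups. It was at 83.3, 121, 67.7 and 68.99 CPM in Sham, 216, 250.4, 320.2 and 474 CPM in Control-AMI and 214, 179, 213 and 480.4 CPM in EMPA–Pre-AMI. Both AMI groups lay wholly above Sham. The highest library of each AMI group, its replicate 4, also had the highest sum of mural markers in the group (5938 CPM in Control-AMI and 3188 CPM in EMPA–Pre-AMI, where Sham held 995 to 2827 CPM). The log2 change was 1.89 ± 0.33 (SE, FDR = 0.00472) for Control-AMI and 1.67 ± 0.33 (SE, FDR = 0.00958) for EMPA–Pre-AMI, against the same Sham libraries. It was called in all 22 alternative fits of each comparison, at 1.63 to 2.18 and 1.25 to 1.94. Without replicate 4 of Control-AMI the first was 1.63 (FDR = 0.00899), and without replicate 4 of EMPA–Pre-AMI the second was 1.25 (FDR = 0.0175). The part of the erythroid markers, whose sums were higher in Control-AMI than in Sham fibroblasts, was not tested. Hk2 was the 1 of 37 members called in each, where 4.16% and 5.11% of 10691 genes were called.

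Pfkfb3 came next in fibroblasts of EMPA–Pre-AMI, at 20.8, 36.3, 23.2 and 26.7 CPM against 15.02, 11.9, 11.7 and 12.6 in Sham and 14.2, 31.9, 20.8 and 13.6 in Control-AMI. EMPA–Pre-AMI and Sham did not overlap, and the change of 1.06 ± 0.30 (SE, FDR = 0.051) just missed the threshold. It passed without Sham replicate 1 (FDR = 0.0486), Control-AMI replicate 2 (FDR = 0.0381), Control-AMI replicate 4 (FDR = 0.0350) or EMPA–Pre-AMI replicate 1 (FDR = 0.0497), and with a replicate block (FDR = 0.0418). Control-AMI and Sham overlapped in Pfkfb3. In the mitochondrial lists no member passed: the smallest p against Sham were those of Dld (0.34 ± 0.19 SE, FDR = 0.338) and Mdh2 (0.44 ± 0.18 SE, FDR = 0.201) in Control-AMI, and of Dld (0.38 ± 0.19 SE, FDR = 0.267) and Suclg1 (-0.44 ± 0.23 SE, FDR = 0.273) in EMPA–Pre-AMI. Left without Sham replicate 1, Eno3 was a further call between Control-AMI and Sham, and Ldha, a lactate dehydrogenase, and Sucla2 were further calls once the sample-sheet list was a term of the model.

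Fibroblasts of EMPA–Pre-AMI and Control-AMI did not differ detectably in these genes. In edgeR 0 of 37 members passed, 0 had an unadjusted p below 0.05 (all genes: 1.59%), DESeq2 called 0, and 0.0% of all genes were called. The member with the smallest p was Hk1 in glycolysis (-0.38 ± 0.21 SE, FDR = 1.00), Pdha1 in pyruvate dehydrogenase (-0.13 ± 0.17 SE, FDR = 1.00) and Idh3b in the citrate cycle (-0.38 ± 0.23 SE, FDR = 1.00). The groups overlapped in every member. Summed glycolytic levels were 1510.1 ± 134 CPM in Sham, 2066 ± 122 CPM in Control-AMI and 1914 ± 98.2 CPM in EMPA–Pre-AMI, with Sham (1333 to 1625) wholly below both. Pyruvate dehydrogenase summed to 247 ± 32.99, 249 ± 20.3 and 247 ± 12.6 CPM and the citrate cycle to 761 ± 89.4, 787 ± 85.3 and 749 ± 93.6 CPM, with overlap.

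In cardiomyocytes, infarction alone changed no member detectably. In edgeR 0 of 38 passed between Control-AMI and Sham, beside 0.0655% of 9167 genes, 2 had an unadjusted p below 0.05 (all genes: 2.72%) and DESeq2 called 0 (all genes: 0.213%). The smallest p were those of Pfkfb3 (0.96 ± 0.34 SE, FDR = 1.00, unadjusted p = 0.0112 in edgeR), Dlat (-0.23 ± 0.19 SE, FDR = 1.00) and Idh3b (-0.38 ± 0.19 SE, FDR = 1.00) in the 3 lists. Pfkfb3 was at 4.79, 7.53, 2.05 and 5.09 CPM in Sham and 6.59, 10.2, 12.5, 10.7 and 8.72 CPM in Control-AMI, with overlap. Hk2, which was higher in both other populations, was at 105, 77.9, 107 and 106.3 CPM in Sham and 114, 94.4, 86.7, 62.3 and 79.1 CPM in Control-AMI, a log2 change of -0.18 ± 0.19 (SE, FDR = 1.00). Of the 38 members 33 had a negative log2 change, among them all 13 of the citrate cycle, where 51.5% of all genes had a positive one. The median was -0.13 over the members and 0.01 over all genes.

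In cardiomyocytes, 13 members were higher in EMPA–Pre-AMI than in Control-AMI at a looser threshold and none at the stricter one. At FDR below 0.05, 0 of 38 passed in edgeR, where 0.0218% of all genes did. An unadjusted p below 0.05 was found for 21 members and 25.0% of all genes, and DESeq2 called 14 members and 8.86% of all genes. At FDR below 0.1, the threshold also used for this comparison, 13 members were called, all higher, beside 5.33% of all genes called higher and 5.38% lower. These were 5 of 18 in glycolysis (Hk2, Tpi1, Pgk1, Eno3 and Ldhb), 4 of 7 in pyruvate dehydrogenase (Pdhb, Dlat, Dld and Pdhx) and 4 of 13 in the citrate cycle (Cs, Suclg1, Fh1 and Mdh1). Median log2 changes were 0.35, 0.59 and 0.44 in the 3 lists and -0.01 over all genes.

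Of the glycolytic members called, triosephosphate isomerase Tpi1 was at 96.9, 83.9, 60.1, 65 and 76.2 CPM in Control-AMI and 92.1, 207, 154 and 101 CPM in EMPA–Pre-AMI, and rose by 0.86 ± 0.23 (SE, FDR = 0.0574). Replicate 1 of EMPA–Pre-AMI was inside the Control-AMI range. Phosphoglycerate kinase Pgk1, the first step that yields ATP, was at 68.3, 58.2, 63.1, 56 and 61.7 CPM and 105, 114, 125 and 71.4 CPM. It rose by 0.75 ± 0.18 (SE, FDR = 0.0571), without overlap. Eno3 was at 379, 347, 360.3, 287 and 342 CPM and 350.1, 823, 762 and 396 CPM and rose by 0.76 ± 0.23 (SE, FDR = 0.0715), with EMPA–Pre-AMI replicates 2 and 3 far above the others. Ldhb had the smallest rise of those called, from 306, 254, 286, 267 and 250.2 CPM to 347, 431, 508 and 321 CPM, or 0.56 ± 0.18 (SE, FDR = 0.0771). Its groups did not overlap.

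Of the pyruvate dehydrogenase members, Pdhb was at 186, 165, 158, 184 and 157 CPM in Control-AMI and 315, 300.0, 367 and 219.6 CPM in EMPA–Pre-AMI. It rose by 0.82 ± 0.18 (SE, FDR = 0.0571), without overlap. Dld was at 79.6, 74.1, 71.6, 53.3 and 60.1 CPM and 121, 71.4, 121 and 92.9 CPM, a rise of 0.59 ± 0.19 (SE, FDR = 0.0816), with replicate 2 of EMPA–Pre-AMI among the Control-AMI libraries. Dlat and Pdhx rose by 0.73 and 0.67, both without overlap. The E1 partner Pdha1 (0.09 ± 0.21 SE, FDR = 0.821) and the kinases Pdk1 (0.17 ± 0.23 SE, FDR = 0.672) and Pdk2 (-0.36 ± 0.40 SE, FDR = 0.607) were not called.

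Of the citrate cycle members, Fh1 had the largest change of all 13 called, from 26.6, 28.8, 15.1, 15.7 and 32.3 CPM to 31.9, 71.99, 74.1 and 26.7 CPM. It rose by 1.11 ± 0.31 (SE, FDR = 0.0592), but replicates 1 and 4 of EMPA–Pre-AMI were inside the Control-AMI range. Cs was at 73.8, 80.5, 33.5, 48.7 and 70.1 CPM and 88.5, 105, 186 and 79.9 CPM, a rise of 0.91 ± 0.26 (SE, FDR = 0.0609), with replicate 4 of EMPA–Pre-AMI inside the Control-AMI range. Mdh1 was at 365, 309, 259, 222 and 261 CPM and 364, 395, 581 and 389 CPM, a rise of 0.61 ± 0.19 (SE, FDR = 0.0791). Hk2 (0.64) and Suclg1 (0.61), the shared subunit of succinyl-CoA ligase, made up the 13. All 13 citrate cycle members had a positive change, from 0.15 to 1.11.

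In this comparison the sample-sheet list moved with the treatment. Of the 13 members called, all of replicates 1 to 3 of EMPA–Pre-AMI, which were on other lists, lay above the Control-AMI range in 8. Replicate 4, the one library on the list of the Control-AMI libraries, lay above that range in 10 and inside it in 3 (Hk2, Cs and Fh1). The median log2 difference from the Control-AMI mean over the 13 was 0.32 for replicate 4 and 0.85 for the others. Replicates 1 to 3 were 3 of the 4 libraries by which the 13 were called, so the second value is partly set by the choice of members. Over all 38 members tested the medians were 0.33 for replicate 4 and 0.42 for the others, and over the 25 not called 0.34 and 0.18. In a fit of list 4 alone, in which replicate 4 is a lone sample assumed to vary like the others, all 13 had a positive change of 0.18 to 0.47 and none was called (FDR of 0.989 to 0.992). With a term for the list 0 were called, and 0 also in a fit of only the 2 groups compared or with a replicate block. The part of the list in these values was not tested. Without EMPA–Pre-AMI replicate 4, 15 members passed at FDR below 0.05, and without Control-AMI replicate 4, Control-AMI replicate 5 or EMPA–Pre-AMI replicate 3, 0 passed at FDR below 0.1. Fewer passed at that threshold, 7 to 8, without Sham replicate 2, Control-AMI replicate 2 or EMPA–Pre-AMI replicate 2. The share of all genes called in the fits with a library left out was not computed. These counts therefore do not show whether the members moved more than other genes. Fibroblast markers in cardiomyocytes summed to 213 to 1242 CPM in EMPA–Pre-AMI and 889 to 2088 CPM in Control-AMI, and cardiomyocyte markers to 42555 to 58253 and 28239 to 57419 CPM.

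**Figure D4:**
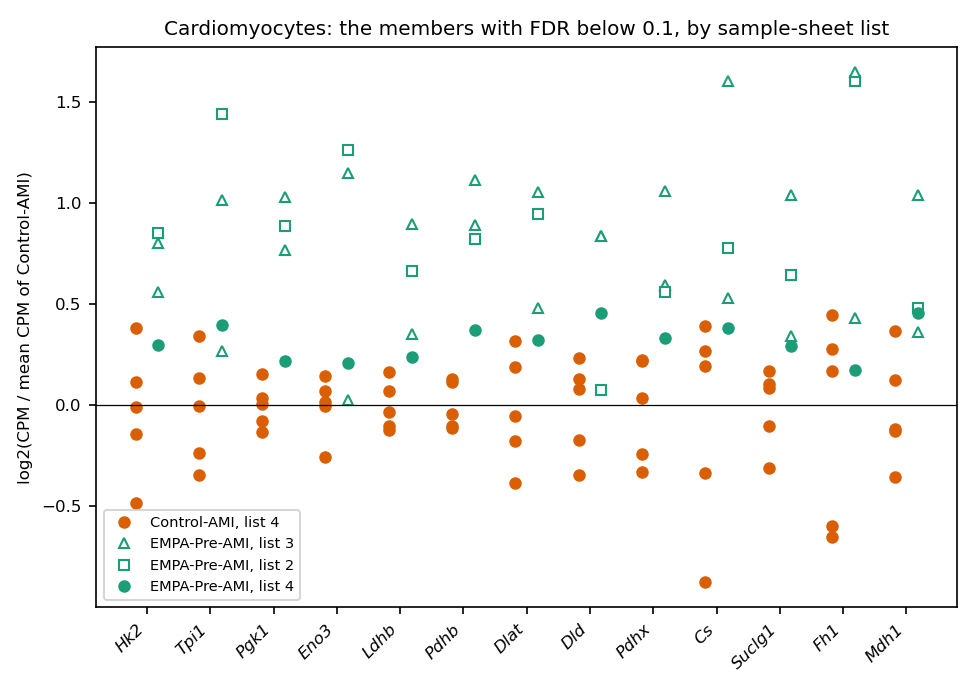
Log2 ratio of each EMPA–Pre-AMI cardiomyocyte library to the Control-AMI mean for the 13 members called at FDR below 0.1, with a separate mark for replicate 4, which shares the sample-sheet list of the Control-AMI libraries. EMPA–Pre-AMI replicate 4 lies at a median of 0.32. The other EMPA–Pre-AMI libraries, which were most of the arm by which these members were called, lie at 0.85. Over all 38 members tested the medians were 0.33 and 0.42.

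Against Sham, cardiomyocytes of EMPA–Pre-AMI had no member called in edgeR at FDR below 0.05, beside 0.338% of all genes. At an unadjusted p below 0.05 there were 14 members (all genes: 18.2%). DESeq2 called 3 (Ldhb, Pdhb and Pfkfb3), beside 2.34% of all genes. Pfkfb3 was closest, at 22.1, 12.1, 13.3 and 8.09 CPM, with 1.46 ± 0.36 (SE, FDR = 0.0864), and did not overlap with Sham. The smallest p of the other lists were those of Pdhb (0.68 ± 0.19 SE, FDR = 0.119) and Fh1 (1.03 ± 0.32 SE, FDR = 0.153). Without EMPA–Pre-AMI replicate 4, 8 members passed, and the share of all genes called in that fit was not computed. Summed levels in Sham, Control-AMI and EMPA–Pre-AMI were 3724 ± 446, 3476 ± 557 and 4359 ± 675 CPM for glycolysis, 781 ± 50.6, 760.0 ± 178 and 962 ± 150.2 for pyruvate dehydrogenase, and 3262 ± 201, 2945 ± 618 and 3883 ± 850.1 for the citrate cycle.

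**Figure D5:**
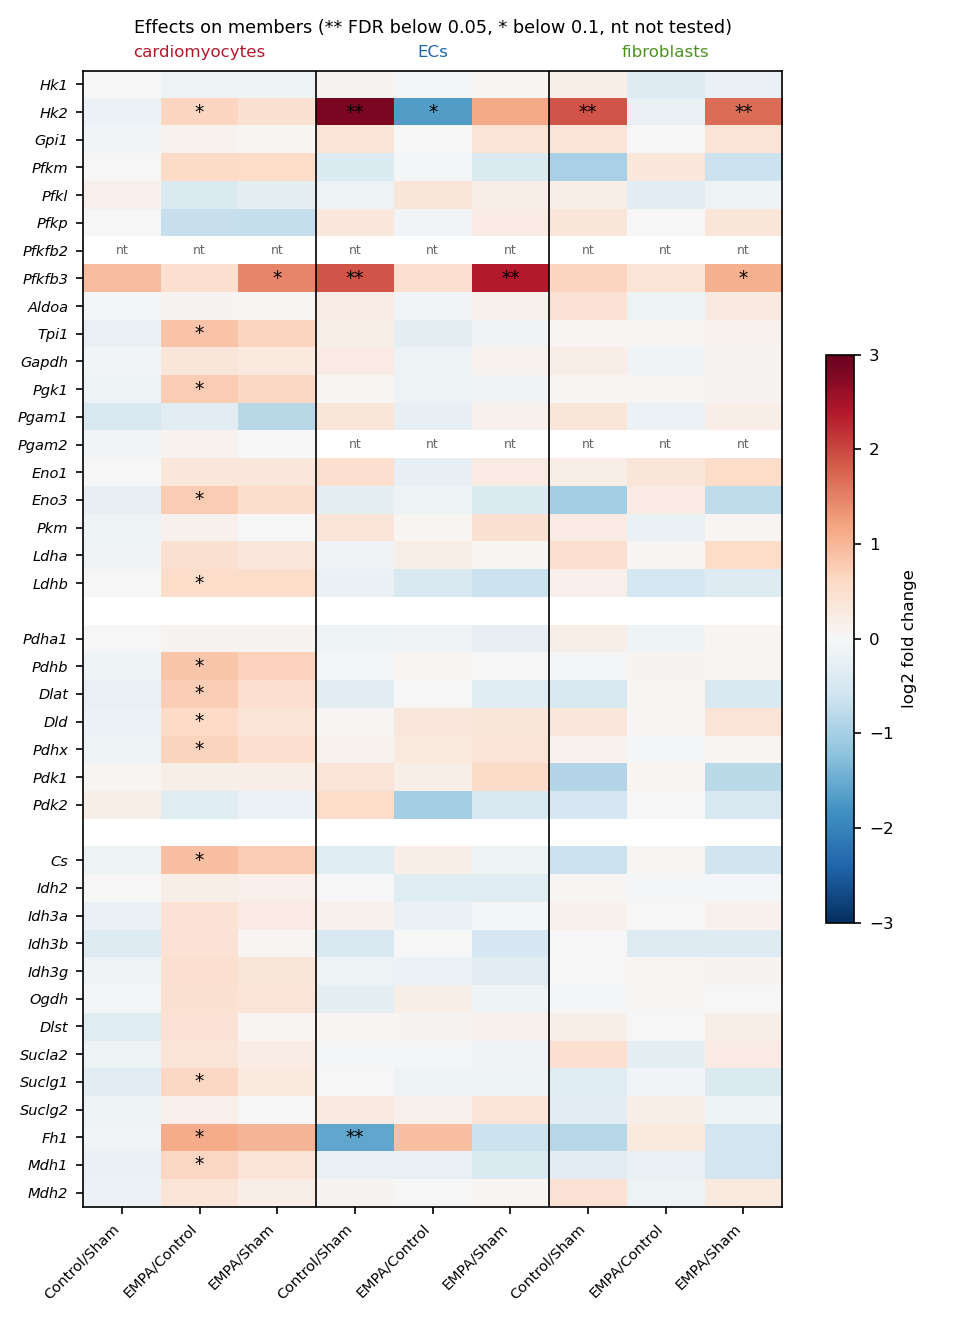
Log2 fold change of each member, as colour, for the 3 pairs of groups in cardiomyocytes, ECs and fibroblasts. Paired stars mark FDR below 0.05, a lone star FDR below 0.1, and nt a member not tested. Hk2 stands out in ECs and fibroblasts after infarction, and the cardiomyocyte changes with EMPA are small and mostly positive.

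The change of Hk2 itself differed between populations. The fit took all 38 libraries as independent, although the populations were taken from the same digested hearts and which libraries share hearts was not given in the sources used here. In the fit of all 38 libraries its change from Sham to Control-AMI was larger in ECs than in cardiomyocytes by 3.01 ± 0.55 (SE, FDR = 0.00235), the 1 member called, where 1.51% of all genes were. It was larger in fibroblasts than in cardiomyocytes by 2.10 ± 0.45 (SE, FDR = 0.0268), again the 1 member called beside 0.331%. That second difference was not called (0 members) without cardiomyocyte Sham replicates 1, 3 or 4, cardiomyocyte Control-AMI replicates 4 or 5, fibroblast Sham replicates 3 or 4, fibroblast Control-AMI replicate 4, or with a replicate block. ECs and fibroblasts did not differ detectably: 0 members passed beside 3.22% of genes and 3 had an unadjusted p below 0.05 (all genes: 12.8%), led by Pfkfb3 (1.25 ± 0.52 SE, FDR = 0.251), and Hk2 differed by 0.91 ± 0.56 (SE, FDR = 0.557).

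From Control-AMI to EMPA–Pre-AMI, the change of Hk2 was lower in ECs than in cardiomyocytes by a log2 difference of -2.29 ± 0.49 (SE, FDR = 0.0195), beside 0.993% of genes called. It was not called without EC Control-AMI replicate 1 or with a replicate block, and without cardiomyocyte EMPA–Pre-AMI replicate 4 Pdhb, Pfkp and Pgk1 were called beside it. Between fibroblasts and cardiomyocytes 0 members passed beside 0.00827% of genes, with 10 at an unadjusted p below 0.05 where 15.2% of all genes were, led by Idh3b (-0.77 ± 0.27 SE, FDR = 0.184). Between ECs and fibroblasts 0 passed beside 2.04%, with 1 at an unadjusted p below 0.05 where 8.09% of all genes were, which was Hk2 (-1.49 ± 0.50 SE, FDR = 0.161). DESeq2 called 0 members in all 3 of these comparisons without a call in edgeR, where it called 4.31%, 1.83% and 2.63% of all genes in the order given.

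The isozyme balance was then compared between groups within each population, in 90 exact two-sided permutation tests over libraries. Of these 18 had p below 0.05, but the smallest adjusted p was 0.19, so none passed. With 4 against 4 libraries the smallest p possible is 0.0286, and with 4 against 5 it is 0.0159. The log2 ratio of Hk2 to Hk1 in ECs was -1.86, -2.22, -0.85 and -2.76 in Control-AMI and -3.11, -3.56, -4.32, -3.39 and -3.08 in EMPA–Pre-AMI, a difference from Sham of 3.25 (exact p = 0.0286, adjusted p = 0.19) for Control-AMI. In fibroblasts it was 1.24, 1.68, 2.29 and 2.52 in Control-AMI and 1.60, 1.58, 1.61 and 3.42 in EMPA–Pre-AMI, with 1.67 (exact p = 0.0286, adjusted p = 0.19) for Control-AMI against Sham. In cardiomyocytes it was 0.63, 0.76, 0.01, 0.47 and 0.48 in Control-AMI and 0.89, 3.05, 1.16 and 0.56 in EMPA–Pre-AMI, where Hk1 in EMPA–Pre-AMI replicate 2, the library with the high erythroid markers, was at 18.8 CPM. All Control-AMI libraries of ECs and of fibroblasts lay above their Sham libraries in this ratio.

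Among the other pairs, Pgam2 to Pgam1 in cardiomyocytes was 2.45, 2.54, 2.42, 2.27 and 2.33 in Control-AMI and 2.96, 2.57, 3.49 and 2.46 in EMPA–Pre-AMI. The difference from Sham was 0.41 (exact p = 0.0159, adjusted p = 0.19) in Control-AMI and 0.88 (exact p = 0.0286, adjusted p = 0.19) in EMPA–Pre-AMI, with both groups wholly above Sham. Pdk2 to Pdk1 in ECs differed between EMPA–Pre-AMI and Control-AMI by -1.31 (exact p = 0.0317, adjusted p = 0.19), on 9 to 38 counts of Pdk2. Sucla2 to Suclg2 in ECs was -0.41 ± 0.26 (SD) in EMPA–Pre-AMI and differed from Sham by -0.49 (exact p = 0.0159, adjusted p = 0.19). Ldha to Ldhb averaged -1.59 ± 0.20 and -1.67 ± 0.21 in cardiomyocytes of Control-AMI and EMPA–Pre-AMI, 2.64 ± 0.60 and 3.30 ± 0.65 in ECs, and 2.27 ± 0.59 and 2.65 ± 0.35 in fibroblasts. Its p was above 0.05 in every comparison.

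The promoters of the 3 genes called within a population at FDR below 0.05 are shown because hypoxia-inducible factors, known to raise many glycolytic genes, bind a core of ACGTG or GCGTG. Each window runs from 250 bases before to 50 after a RefSeq start, from a RefSeq table on GRCm38.p6, and each matched once in GRCm39, the build of the files. All are on the minus strand and are given 5′ to 3′, with matches to these letters on either strand in capitals. Hk2 spans chr6:82699740-82751469 in GRCm39 and its window is chr6:82751386-82751685. Pfkfb3 spans chr2:11476244-11558888, with windows chr2:11558691-11558990 (start 1) and chr2:11506852-11507151 (start 2), and Fh1 spans chr1:175425290-175453205, with the window chr1:175453152-175453451.
Hk2: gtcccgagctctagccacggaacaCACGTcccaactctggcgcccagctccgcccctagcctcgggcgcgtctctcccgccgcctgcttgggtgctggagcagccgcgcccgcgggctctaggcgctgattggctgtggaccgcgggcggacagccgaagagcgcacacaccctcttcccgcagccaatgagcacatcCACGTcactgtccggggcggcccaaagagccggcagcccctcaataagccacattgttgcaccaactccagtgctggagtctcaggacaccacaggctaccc
Pfkfb3 start 1: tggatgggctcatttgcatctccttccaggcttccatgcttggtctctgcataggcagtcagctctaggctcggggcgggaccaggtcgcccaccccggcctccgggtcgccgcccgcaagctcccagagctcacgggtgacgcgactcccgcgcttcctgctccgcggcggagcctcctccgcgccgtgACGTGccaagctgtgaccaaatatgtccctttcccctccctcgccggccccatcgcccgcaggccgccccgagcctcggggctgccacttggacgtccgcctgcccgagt
Pfkfb3 start 2: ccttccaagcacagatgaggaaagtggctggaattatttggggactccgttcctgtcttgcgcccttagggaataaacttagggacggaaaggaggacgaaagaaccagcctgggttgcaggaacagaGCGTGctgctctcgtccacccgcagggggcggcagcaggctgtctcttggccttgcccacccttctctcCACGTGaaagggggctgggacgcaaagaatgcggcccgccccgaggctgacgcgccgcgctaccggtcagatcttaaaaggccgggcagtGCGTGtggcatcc
Fh1: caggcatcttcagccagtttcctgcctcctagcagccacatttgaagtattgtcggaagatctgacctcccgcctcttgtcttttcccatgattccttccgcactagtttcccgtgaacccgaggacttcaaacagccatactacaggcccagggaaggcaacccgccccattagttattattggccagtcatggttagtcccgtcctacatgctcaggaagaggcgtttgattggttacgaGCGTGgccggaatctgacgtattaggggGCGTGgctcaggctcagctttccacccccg
The Hk2 window holds 2 matches to ACGTG, both on the other strand and so written CACGT. The windows of Pfkfb3 hold 1 match at start 1 and, at start 2, 2 matches to ACGTG that overlap on the 2 strands as CACGTG and 2 to GCGTG. That of Fh1, which fell in ECs, holds 2 matches to GCGTG. Of 32851 promoter windows of all genes, 19.6% hold ACGTG, 32.4% GCGTG and 43.8% either. Of the 58 windows of 38 members, 42 (72.4%) hold either: 25 of 32 in glycolysis, 5 of 9 in pyruvate dehydrogenase and 12 of 17 in the citrate cycle. The share over all windows was not matched for GC content, which was 54.3% to 69.7% in the windows shown, and enrichment was not tested. These matches are a description of letters, and binding was not measured.

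A list of 44 further genes of the same pathways was counted in the same fits. In Sham, 7 of 10 tested in glycolysis, 6 of 7 around pyruvate and 12 of 16 in the citrate cycle were higher in cardiomyocytes than in ECs. Lower was 1, Me2 of the citrate cycle list. Of all genes tested, 28.1% were called higher and 24.8% lower. In cardiomyocytes of EMPA–Pre-AMI against Sham 1 of 28 tested was called, beside 0.338% of all genes. This was Pdk4, the kinase that closes pyruvate dehydrogenase when fatty acids are burned. It was at 14.1, 17.96, 7.87 and 13.2 CPM in Sham, 43.9, 50.8, 96.9, 44.3 and 58.1 in Control-AMI and 128, 26.01, 57.4 and 34.5 in EMPA–Pre-AMI, and rose by 2.19 ± 0.44 (SE, FDR = 0.0461). The Control-AMI and EMPA–Pre-AMI libraries both lay wholly above Sham and overlapped each other, although Control-AMI against Sham was not called. In fibroblasts of EMPA–Pre-AMI against Sham 1 rose and 1 fell of 28 tested, beside 5.11% of all genes called in either direction. These were Slc16a1, a lactate transporter (1.01 ± 0.26 SE, FDR = 0.0334), and Sdhaf4, an assembly factor of succinate dehydrogenase (-1.52 ± 0.38 SE, FDR = 0.0297). Sdhaf4 was at 14.6, 16.3, 10.8 and 20.5 CPM in Sham and 6.23, 2.63, 6.85 and 5.84 in EMPA–Pre-AMI, without overlap. No other comparison within a population called one of these genes at FDR below 0.05. At FDR below 0.1, cardiomyocytes of EMPA–Pre-AMI against Control-AMI had 5 of 28 higher and 0 lower, beside 5.33% and 5.38% of all genes. Those higher were Bpgm (1.88), which makes the 2,3-bisphosphoglycerate of red cells, the mitochondrial pyruvate carrier subunits Mpc1 (1.11) and Mpc2 (0.70), Sdhaf4 (0.90) and the aspartate aminotransferase Got1 (0.87). Bpgm was highest, at 26.0 CPM, in EMPA–Pre-AMI replicate 2, the library with the high erythroid markers.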

How the data were processed

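Cells of 3 populations (cardiomyocytes, ECs, fibroblasts) from hearts of the Sham, Control-AMI or EMPA–Pre-AMI groups gave 38 RNA libraries. The authors made 3′ libraries, trimmed reads with cutadapt 2.8 and assigned them with Salmon to GRCm39. The authors deposited estimated counts per gene for 35682 genes, not normalized, of which 4.55% of the values were not whole. These were rounded to whole numbers here. Symbols came from a GRCm39 annotation, which named 35407 of the genes. Counts came from totals of 1352514 to 4509284 a library, and the number of molecules behind them was not given in the sources used here.

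Groups came from the labels. Each population was fitted by itself with its 3 groups in edgeR 4.0.16 (R 4.3.3, limma 3.58.1): filterByExpr with a minimum count of 10, TMM factors, and the quasi-likelihood test with robust estimation. The FDR is Benjamini-Hochberg adjusted over all genes tested (9167 in cardiomyocytes, 10438 in ECs and 10691 in fibroblasts), with a threshold of 0.05, and also 0.1 for EMPA–Pre-AMI against Control-AMI in cardiomyocytes. Pfkfb2 passed the filter in no population, with at most 7 counts in cardiomyocytes, 3 in ECs and 21 in fibroblasts, and Pgam2 passed only in cardiomyocytes, with at most 11 counts in ECs and 19 in fibroblasts. Sham populations and differences of effect were tested in 1 fit of 9 groups with 12085 genes. Because each library pools hearts, p-values measure the spread between such libraries. Cardiomyocytes and sorted cells came from the same digests, so libraries of different populations can share hearts, which that fit did not model. The steps were tested on simulated data.

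The members and lists were chosen with earlier results of these data known. Values in every library were given for members called within a population, except that in cardiomyocytes at FDR below 0.1 the 6 with the largest and the 3 with the smallest change were given and the rest as folds. For isozyme pairs they were given where the text discusses the pair, and otherwise as the mean and SD. Where no member of a list was called, the one with the smallest p was named. The main fits did not pair libraries by number. Correlations of deviations of same-numbered libraries were over 0.1 in 3 of 12 pairs in cardiomyocytes, 4 of 12 in ECs and 6 of 12 in fibroblasts. They were not set against those of differently numbered libraries, so they cannot settle whether the numbers stand for pairs. Alternatives were DESeq2 1.42.0, normalization by RLE, the fit without robust estimation, all genes kept, a minimum of 10 counts in each library, a fit of the compared groups alone, no mitochondrially encoded genes, a replicate block, each library left out in turn, and, chosen after seeing the data, the sample-sheet list as a term or a single list alone. Protein sequences were not used here.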

Additional observations from a re-analysis of the deposited data

Results flagged for a closer look

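In 153 groups of 4 or 5 libraries (levels of called members, isozyme ratios and summed levels), 9 had a library farther from the others than Dixon's 95% limit, where chance flags about 1 in 20. In cardiomyocytes Mdh1 was at 581 CPM in EMPA–Pre-AMI replicate 3 (others 364 to 395). The log2 ratio of Sucla2 to Suclg2 was 1.29 in Sham replicate 4 (others 0.87 to 0.89), and that of Mdh1 to Mdh2 was -1.07 in Sham replicate 3 (others -1.31 to -1.29). In fibroblasts Hk2 was at 480.4 CPM in EMPA–Pre-AMI replicate 4 (others 179 to 214), the same library in which the log2 ratio of Hk2 to Hk1 was 3.42 (others 1.58 to 1.61). In fibroblasts of Control-AMI, the log2 ratio of Pdk2 to Pdk1 was 1.58 in replicate 1 (others 1.98 to 2.02), and that of Sucla2 to Suclg2 was 1.36 in replicate 4 (others -0.04 to 0.07). The summed level of pyruvate dehydrogenase was 296 CPM in fibroblasts of Sham replicate 2, the library with high leukocyte markers (others 224 to 236), and that of the citrate cycle was 628 CPM in Sham replicate 1 (others 794 to 816).

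The change of Hk2 differed between populations by the test of the difference itself: from Sham to Control-AMI by 3.01 ± 0.55 (SE, FDR = 0.00235) between ECs and cardiomyocytes and by 2.10 ± 0.45 (SE, FDR = 0.0268) between fibroblasts and cardiomyocytes, and from Control-AMI to EMPA–Pre-AMI by -2.29 ± 0.49 (SE, FDR = 0.0195) between ECs and cardiomyocytes. The fibroblast markers in the EC libraries, given with the EC results, moved with the first and the last of these, and their part was not tested.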

How the results depend on the processing

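No called member changed direction in any alternative. Of 568 alternative values of called members, 412 stayed on their side of the threshold and 156 lost it. List medians were not tested. Of 612 alternative values 610 stayed within the spread between libraries, 57 of them (of 11 medians that were themselves at most 0.06 in size) lay on the other side of 0, and the median of the citrate cycle in ECs (Control-AMI against Sham, -0.06) moved to -0.26 with the sample-sheet list as a term and to -0.28 on list 2 alone. No isozyme ratio passed after adjustment in any of 39 alternatives (0 in each), and 3 against 4 libraries cannot reach an exact p of 0.05.

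Counts of members called moved as follows, with the cause not tested unless stated. Except for DESeq2, the share of all genes called in each alternative was not computed, so the counts have no such share beside them. In cardiomyocytes, EMPA–Pre-AMI against Control-AMI went from 0 to 14 with DESeq2, 5 with no filter and 6 with a minimum of 10 counts in each library. It went from 0 to 15 with 1 library left out. At FDR below 0.1 its 13 became 8 with no filter and 0 with only the 2 groups compared, the replicate block, the list term or list 4 alone (fewer libraries), and 0 to 17 with 1 library left out. EMPA–Pre-AMI against Sham went from 0 to 3 with DESeq2, 1 with no filter and 0 to 8 with 1 left out.

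In ECs, Control-AMI against Sham went from 3 to 1 with at least 10 counts (Hk2 and Fh1 were then not tested), 1 with the list term, 0 on list 2 alone and 1 to 3 with 1 left out. EMPA–Pre-AMI against Control-AMI went from 0 to 1 (Hk2) with RLE factors, DESeq2, no filter, only the 2 groups or no mitochondrially encoded genes, and 0 to 1 with 1 left out. EMPA–Pre-AMI against Sham went from 1 to 0 on list 2 alone and 0 to 1 with 1 left out.

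In fibroblasts, Control-AMI against Sham went from 1 to 3 with the list term and 1 to 2 with 1 left out. EMPA–Pre-AMI against Sham went from 1 to 2 with RLE factors, DESeq2, at least 10 counts, only the 2 groups, the replicate block, the list term or list 4 alone, and 1 to 2 with 1 left out. In Sham, ECs against fibroblasts went from 10 to 2 with the list term.

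The differences of effect of Hk2 were lost with at least 10 counts (0 called, Hk2 not tested). From Sham to Control-AMI, ECs against cardiomyocytes gave 1 to 2 with 1 left out. Fibroblasts against cardiomyocytes gave 0 with no filter, 0 with the replicate block and 0 to 1 with 1 left out. From Control-AMI to EMPA–Pre-AMI, ECs against cardiomyocytes gave 2 with DESeq2, 0 with the replicate block and 0 to 4 with 1 left out, and fibroblasts against cardiomyocytes 0 to 1 with 1 left out. The replicate block changed no other count by over 1.5 times. Correlations of same-numbered libraries lay between -0.09 and 0.17 in cardiomyocytes, -0.06 and 0.21 in ECs, and -0.11 and 0.48 in fibroblasts. These do not settle whether the library numbers stand for pairs.

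Levels of Hk2 and Fh1 in ECs rest on 0 to 79 and 4 to 36 counts a library, which limits their precision, and in cardiomyocytes the groups compared with EMPA share a sample-sheet list with 1 of its 4 libraries. No measure of purity was at hand beyond marker genes.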
